A study of Mus musculus with 113 samples.

Results

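The genes followed here belong to a short burst of transcription at the 2-cell (2C) stage of the mouse embryo, and were measured in every expression library of the series. They were Zscan4c, Zscan4d, Zscan4f, Tcstv1, Tcstv3, Zfp352, Tdpoz1, Tdpoz3 and Tdpoz4. They were taken from a list of names, chosen with earlier results of these data known. They are 9 of the 24006 genes in the files. The series asked what the nuclear receptor NR5A2 and 3 related receptors (RARG, NR1H3 and NR2C2) do between genome activation and the first lineage decision, by removing them from zygotes of superovulated females and sequencing mRNA with Smart-seq2, a full-length protocol for very small samples. The labels call the embryos wild type, and the methods give C57BL/6N females mated to PWK/PhJ males.

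Of the 92 libraries, 32 came from pools of siRNA-injected embryos and 60 from single embryos of a base-editing experiment. The pools had 2 libraries per group. Negative control (NC) siRNA was injected at 20 µM in the 2C experiment and in the experiment that knocked down (KD) all 4 receptors at once (4KD), at 15 µM in the experiment that knocked down 3 at a time (3KD), and at 5 µM in the experiment on single receptors. Receptor siRNAs were injected at 5 µM each, except Nr5a2 siRNA at 2C, which was injected at 20 µM. The 4KD groups were collected at the 4-cell (4C) and 8-cell (8C) stages, the 3KD and single KD groups at 8C. Single embryos received base editor mRNA alone (BE, 8 embryos per stage), sgRNA against Nr5a2 alone (sgRNA, 8 per stage) or both (BE + sgRNA, 14 per stage), each at 100 ng/µL, and were collected at 2C or 8C. BE and sgRNA embryos served as controls, since neither alone edits the gene. A base-edited embryo still makes Nr5a2 mRNA and can be a mixture of edited and unedited copies. A pool gives 1 value for several embryos, so fewer cells that express a gene and less RNA per cell cannot be told apart. The labels do not say whether 2 libraries of a group came from separate injections, so the spread behind each p-value may be partly technical.

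The first large wave of transcription from the mouse embryo's own genome comes at the 2C stage, and a group of genes is expressed then and almost nowhere else. In embryonic stem cells the same genes come on together in rare cells that resemble 2C embryos. The transcription factor DUX and the MERVL retrotransposon are known parts of this program, DPPA2 and DPPA4 act upstream of it, and chromatin repressors shut it off. Zscan4 genes encode SCAN-domain zinc finger proteins known for their part in telomere maintenance. Zfp352 encodes another zinc finger protein, the Tcstv genes are named as a variable group of 2-cell-stage transcripts, and Tdpoz genes encode proteins with a TRAF domain and a POZ domain.

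Zscan4c, Zscan4d and Zscan4f are close copies in 1 cluster on chromosome 7, and the sequence before their starts is nearly the same. Over the aligned bases upstream of the start, Zscan4c and Zscan4f were 99.6% identical, Zscan4c and Zscan4d 97.5%, and Zscan4d and Zscan4f 96.8%. In mm9, the build of the files, GENCODE places Zscan4c at chr7:11591071-11595896 on the plus strand, Zscan4d at chr7:11746992-11751497 on the minus strand and Zscan4f at chr7:11983264-11988090 on the plus strand. Zfp352 lies at chr4:89885511-89892393 (plus strand), Tdpoz1 at chr3:93474184-93475418 (minus strand), Tdpoz3 at chr3:93629942-93631039 and Tdpoz4 at chr3:93600320-93601432 (both plus strand). The 250 bases before the RefSeq start of 3 members are shown because 2 of them are copies that moved together and the third, Zfp352, has a different layout. They were read from RefSeq's GRCm38.p6 promoter table and each matched mm9 exactly once: Zscan4f at chr7:11983014-11983263 (plus strand), Zscan4d at chr7:11751498-11751747 (minus strand) and Zfp352 at chr4:89885261-89885510 (plus strand). Each window ends at the base before the annotated gene.
Zscan4f: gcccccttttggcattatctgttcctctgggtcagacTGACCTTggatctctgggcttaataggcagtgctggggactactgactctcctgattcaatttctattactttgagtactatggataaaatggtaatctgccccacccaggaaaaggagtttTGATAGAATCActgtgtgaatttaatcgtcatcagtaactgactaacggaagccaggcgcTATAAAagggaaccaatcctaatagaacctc
Zscan4d: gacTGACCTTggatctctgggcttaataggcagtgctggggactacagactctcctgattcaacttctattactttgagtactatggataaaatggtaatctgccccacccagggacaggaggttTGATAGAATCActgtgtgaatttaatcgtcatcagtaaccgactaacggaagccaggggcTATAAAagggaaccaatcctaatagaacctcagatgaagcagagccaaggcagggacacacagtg
Zfp352: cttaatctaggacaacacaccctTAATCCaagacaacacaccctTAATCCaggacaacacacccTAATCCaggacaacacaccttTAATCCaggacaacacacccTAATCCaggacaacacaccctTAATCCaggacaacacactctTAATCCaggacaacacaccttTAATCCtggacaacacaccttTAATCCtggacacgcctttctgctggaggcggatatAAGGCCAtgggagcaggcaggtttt
Capitals mark matches, on either strand, to 5 short motifs: AAGGTCA, the core letters of an NR5A2 site, AAGGCCA, a variant of it, GGATTA, a homeobox core, and TATAAA, the letters of a TATA box. The last of the 5, a double homeobox site of the DUX type, was searched as TGATT and ATCA with 2 bases between them. Each of the 3 Zscan4 windows held 1 AAGGTCA (read on the opposite strand), 1 TATAAA and 1 double homeobox site. Of 32851 promoter windows of the same length, 4.08% held AAGGTCA, 12.4% TATAAA and 0.177% the double homeobox site. The Zfp352 window held 1 AAGGCCA (in 5.24% of windows) and 9 GGATTA (in 6.25% of windows), all on the opposite strand as TAATCC in a short tandem repeat. It was the 1 window of 32851 with 5 or more GGATTA. Tdpoz1 held 1 GGATTA and Tdpoz4 none of the 5 motifs. Tcstv1, Tcstv3 and Tdpoz3 were not in the promoter table. A match of letters is a description of the sequence and not a measured binding site.

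The copies also limit what a single gene's value means. Over their coding sequences Zscan4c and Zscan4f were 99.6% identical and Zscan4d was 97.7% identical to either, so reads could be assigned to the wrong copy. Tdpoz1 and Tdpoz3 were 89.3% identical, Tdpoz1 and Tdpoz4 81.8%, and Tdpoz3 and Tdpoz4 82.1%. Values of single copies are therefore uncertain, so levels by embryo and stage are also given as sums over a family (Zscan4, Tcstv, Tdpoz), and fits with the families summed were run as an alternative.

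All values are FPKM (fragments per kilobase of transcript, scaled to the mapped fragments of a library), which carry no read counts, so the depth of each library is unknown and no counting interval can be given. Relative depth, from the spacing of low FPKM values, ran from 0.363 to 1.52. The targeted genes were lower in the KD pools: Nr5a2 was at 19.4 and 24.3 FPKM in the 2C NC pools and at 2.72 and 6.13 in the 2C Nr5a2 KD pools, and Nr2c2 at 7.81 and 12.2 in the NC pools and 0.809 and 0.592 in the Nr2c2 KD pools at 8C. In the 3KD experiment Rarg overlapped, with 17.6 and 2.18 FPKM in NC and 1.61 to 3.60 in the KD groups that target it. After 4KD at 4C, replicate 2 kept more of the targeted mRNAs than replicate 1. Nr5a2 was at 17.6 FPKM there against 3.98, with 26.8 and 31.7 in NC. Nr1h3 was at 8.35 against 1.61, with 15.0 and 22.3 in NC. Column names inside the files hold the words eBE or BE4 for the embryos given the editor. The 15 sgRNA embryos with a 2C or 8C name to match their label hold neither and were placed with the set nearest in library number, which gave 17 of the 2C and 14 of the 8C single embryos in the eBE set and 12 and 14 in the BE4 set. The methods name an editor plasmid with eBE in its name and none with BE4. What either word marks in the column names is not given in the sources used here. For 3 libraries, 2C sgRNA embryo 8 and 8C BE + sgRNA embryos 13 and 14, the column name gave the 4C stage, against their labels. These are called by their labels here. Values without them are given for the correlations between families, for edited against control embryos within a stage, and for the fall in edited embryos. The 2C to 8C fall in control embryos, the difference of the falls and the correlations with other genes are given with them included only. Of 10 cumulus and granulosa cell markers, the median library had none at 1 FPKM or more. Their sum still reached 22.4 FPKM in a 2C embryo, 3.28 in an 8C embryo and 9.62 in a pool. Fshr was at 0 in every 8C embryo and every pool, but not in every 2C embryo. The summed level of 4 sperm markers had medians of 3.27, 0 and 1.60 FPKM in 2C embryos, 8C embryos and pools, and reached 44.5, 7.90 and 17.5. That of 3 blood markers had medians of 52.0, 6.70 and 30.0 FPKM and reached 245, 32.9 and 185. Hbb-b1 was at 0 in every 2C embryo and every pool, so the sums there came from the other blood markers.

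At 2C every member was expressed, but the level differed greatly between single embryos. Zscan4f had a median of 34.9 FPKM over the 30 embryos, with 0 in the lowest and 399 in the highest. Zscan4c ran from 0 through a median of 16.1 to 235 FPKM, and Zscan4d from 0 through 14.7 to 149 FPKM. The high values of all 3 came from the same few embryos. Summed over the 3 copies, BE embryo 8 reached 772 FPKM, sgRNA embryo 7 reached 721 and BE embryo 1 reached 403, whereas BE + sgRNA embryo 7 had 1.28 and sgRNA embryo 8 had 1.51. The sum was at or above 100 FPKM in 10 of 30 embryos and below 10 in 3.

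Zscan4f had the largest median share of the 3 copies. In the 28 embryos with a summed level of at least 5 FPKM, Zscan4f made up a median of 48.5% of the sum (12.3 to 66.0%), Zscan4c 25.0% (7.78 to 37.3%) and Zscan4d 24.6% (8.37 to 79.9%). In the 4 pools at 2C the shares of Zscan4f lay between 45.2 and 52.6%. How reads of such close copies are shared depends on the assignment described above, so these shares are not levels of distinguishable transcripts.

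The Tcstv genes were the most abundant members at 2C per length of transcript. Tcstv3 ran from 1.17 through a median of 179 to 545 FPKM over the 30 embryos, and Tcstv1 from 0 through 155 to 641 FPKM. Zfp352 followed, from 0 through 70.5 to 248 FPKM. The ranges of Tcstv1, Tcstv3 and Zfp352 overlapped almost entirely, so their order does not stand beyond the spread between embryos. The summed Tcstv level was at or above 100 FPKM in 22 of 30 embryos and Zfp352 in 11 of 30.

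The Tdpoz genes were present in nearly every 2C embryo at lower levels. Tdpoz1 ran from 1.02 through a median of 58.7 to 188 FPKM, Tdpoz4 from 0 through 27.6 to 120 FPKM, and Tdpoz3 from 0 through 8.74 to 57.0 FPKM. Tdpoz1 made up a median of 63.1% of the family sum, Tdpoz4 27.3% and Tdpoz3 10.9%. The summed Tdpoz level was at or above 100 FPKM in 15 of 30 embryos. Tdpoz3 was the least abundant of the 9 members by its median.

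**Figure D1:**
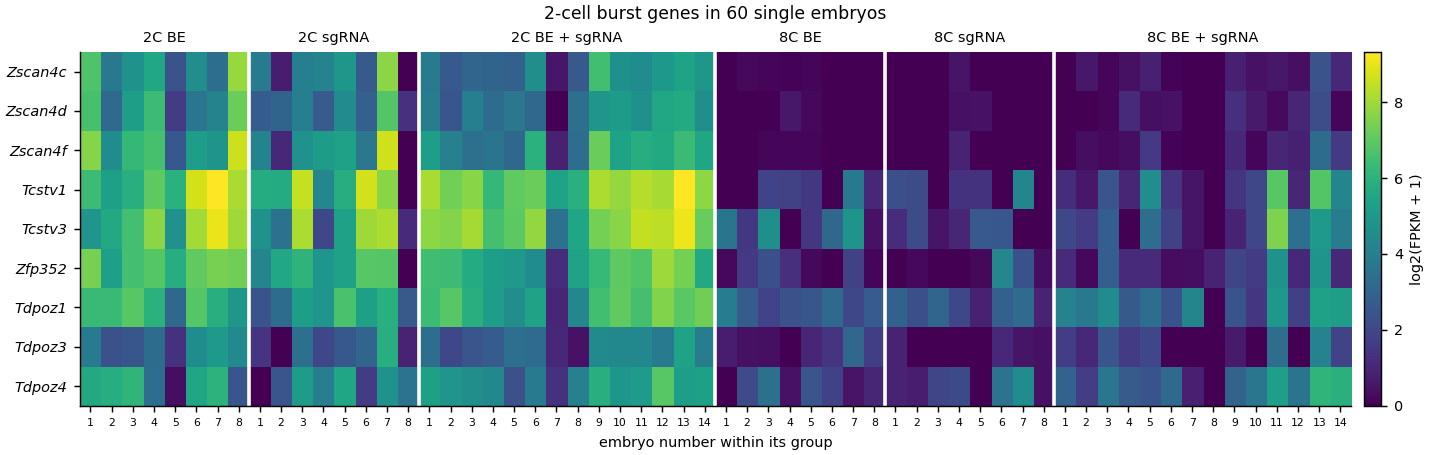
Heat map of log2(FPKM + 1) of the 9 burst genes (horizontal lanes) in the 60 single embryos, in columns numbered within their injected group and stage; the colour scale starts at 0. The 2C columns are bright but uneven, with sgRNA embryo 8 and BE + sgRNA embryo 7 dark, and the 8C columns are dark for Zscan4 with some Tcstv and Tdpoz left, most in BE + sgRNA embryos 11, 13 and 14.

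A few 2C embryos were low for nearly all 9 genes. BE + sgRNA embryo 7 had Zscan4f at 0.806, Zfp352 at 1.25 and Tdpoz1 at 1.02 FPKM, but Tcstv1 at 42.1 FPKM. In sgRNA embryo 8 Zscan4c, Zscan4f, Tcstv1, Zfp352 were at 0 and Tcstv3 at 1.17 FPKM, while Tdpoz4 was at 10.7 and Tdpoz1 at 5.07 FPKM. The second of these is the 2C library whose column name gives 4C. Its summed level of 9 oocyte-deposited transcripts was 57.8 FPKM, against 346 to 4482 in the other 29 embryos at 2C and 72.4 to 179 in the 4C pools, and its median log2(FPKM + 1) over 41 genes activated early at 2C was 0.27, against 1.46 to 6.60 in the same 29 embryos. The part of its stage in these low values was not tested.

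The 4 families varied together from embryo to embryo, though less than perfectly. After the mean of each injected group was subtracted from log2(FPKM + 1), the correlation over 30 embryos was highest between Tcstv and Zfp352 (r = 0.83, rho = 0.77; permutation p adjusted over 6 pairs = 6.0e-05 for both, from a raw p of 1.0e-05, the smallest that 100000 permutations can give). It was r = 0.72 for Zscan4 with Zfp352 (rho = 0.56; adjusted permutation p = 6.0e-05 and 0.00255), 0.69 for Zscan4 with Tdpoz (rho = 0.61; 8.0e-05 and 0.00092) and 0.68 for Zfp352 with Tdpoz (rho = 0.61; 0.000345 and 0.00092). It was lowest for Zscan4 with Tcstv (r = 0.60, rho = 0.51; 0.000576 and 0.00462) and Tcstv with Tdpoz (r = 0.54, rho = 0.53; 0.00272 and 0.00413). All points share the FPKM scaling and the quality of 1 library, so this p does not separate the genes from the libraries.

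Some of these relations were weaker over fewer embryos. Without the 2 embryos farthest from the median of the first family, r was 0.39 for Zscan4 with Tcstv, 0.49 for Zscan4 with Zfp352 and 0.57 for Zscan4 with Tdpoz, and was 0.71, 0.45 and 0.58 for Tcstv with Zfp352, Tcstv with Tdpoz and Zfp352 with Tdpoz. Without sgRNA embryo 8, r was 0.49, 0.65 and 0.69 for Zscan4 with Tcstv, Zfp352 and Tdpoz, and 0.72, 0.57 and 0.75 for Tcstv with Zfp352, Tcstv with Tdpoz and Zfp352 with Tdpoz. Within the eBE set (17 embryos) r was 0.32, 0.40 and 0.54 for Zscan4 with Tcstv, Zfp352 and Tdpoz, and 0.68, 0.33 and 0.44 for the other 3 pairs in the same order. Within the BE4 set (12 embryos) r ran from 0.64 for Zscan4 with Tdpoz to 0.91 for Tcstv with Tdpoz.

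**Figure D2:**
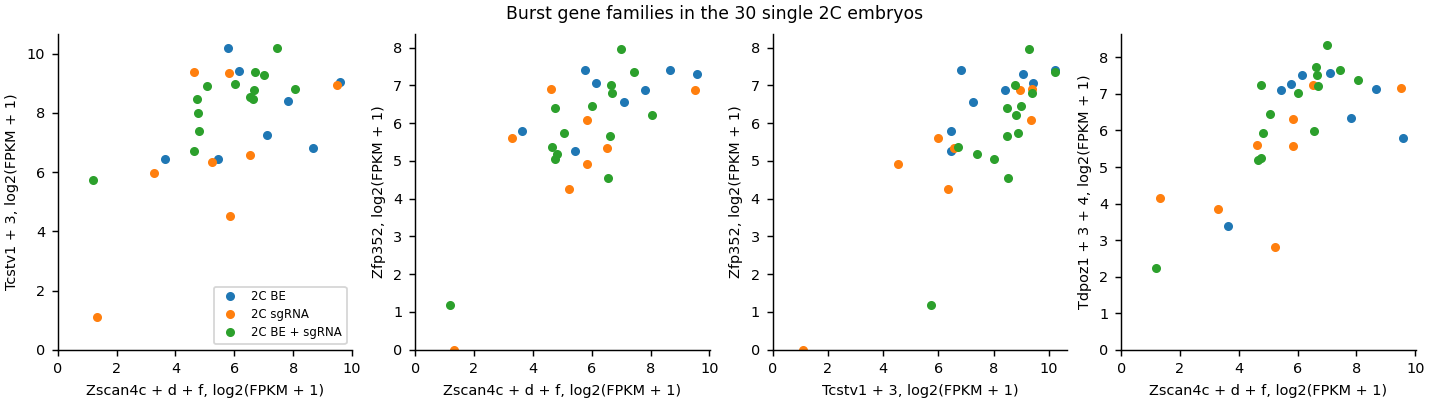
Level of 1 family against another, as log2(FPKM + 1), in the 30 single 2C embryos for 4 of the 6 pairs; each point is 1 embryo, coloured by injected group. The points rise together in each panel, with r of 0.60, 0.72, 0.83 and 0.69 from left to right after the group means were subtracted, and sgRNA embryo 8 and BE + sgRNA embryo 7 lie at the low end.

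The same embryos were also ranked alike by genes outside the 9 members. Among 6667 candidates, the genes most like the Zscan4 sum over the 30 embryos were Zscan4a (r = 0.92) and Zscan4b (r = 0.88), whose reads may be shared with the members, then Gm12794 (0.86), LOC100502896 (0.84) and Usp17ld (0.83). The Tcstv sum was most like BC147527 (0.90), B020031M17Rik (0.90) and Gm8764 (0.89). Zfp352 was most like Usp17lc (0.91), LOC100502896 (0.90) and Usp17ld (0.88). The Tdpoz sum was most like Rfpl4b (0.93), Gm6902 (0.93) and Gm4858 (0.93), with Tdpoz5 at 0.92. These values describe the 30 libraries and carry no test. The level of the Tdpoz family also followed late-activated genes (r = 0.70 with the median of 557 genes activated late at 2C), whereas r was 0.28 for Zscan4, 0.11 for Tcstv and 0.32 for Zfp352. By rank, rho was 0.51 for Tdpoz, 0.08 for Zscan4, -0.04 for Tcstv and 0.07 for Zfp352. With the 41 early genes, which were chosen on other embryos, r was 0.83, 0.77, 0.80 and 0.83 for Zscan4, Tcstv, Zfp352 and Tdpoz. In the same order rho was 0.70, 0.73, 0.73 and 0.85.

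In pools of NC embryos Zscan4 was nearly cleared by 4C, while the Tcstv and Tdpoz genes were still there. Zscan4f stood at 124 and 25.2 FPKM in the 2C NC pools and at 0 and 0.126 in the 4C NC pools (log2 fold change -5.75 ± 0.64 SE, limma with Benjamini-Hochberg adjustment, adjusted p = 0.000595). Zscan4d went from 77.7 and 12.2 to 0.241 and 0.515 FPKM (-4.56 ± 0.72, adjusted p = 0.00199) and Zscan4c from 73.1 and 12.6 to 0 and 1.13 (-4.44 ± 0.73, adjusted p = 0.00234). To be called, here and in every fit below, a gene needed an adjusted p below 0.01 together with a log2 fold change of 2 or more in either direction. Fold changes are on log2(FPKM + 1), which understates changes of low genes. The 3 Zscan4 genes were the members called, 3 of 9, beside 5.79% of the 12181 genes tested that were called lower. The summed Zscan4 mean at 4C was 0.619% of that at 2C.

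The other 6 members were not called between 2C and 4C. Zfp352 had 214 and 55.9 FPKM at 2C and 7.94 and 29.1 at 4C, so the 2 stages did not overlap (-2.75 ± 0.82, adjusted p = 0.03). With 2 pools against 2, groups often lie apart with no change in level, here and below. The share of all genes that did so was not counted. Tcstv1 had 368 and 102 FPKM at 2C and 60.6 and 131 at 4C (-1.11 ± 0.75, adjusted p = 0.294), and the summed Tcstv mean at 4C was 40.4% of that at 2C. Tdpoz4 was nearly as high at 4C, with 29.8 and 18.3 FPKM against 45.2 and 13.1 (-0.06 ± 0.70, adjusted p = 0.961). Tdpoz1 kept 29.4% of its 2C mean and Tdpoz3 24.8%, neither passing the test. The median member had a log2 fold change of -1.36 and the median of all genes tested was -0.16.

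The 2 NC pools at 2C differed widely. The first had more of each of the 9 members than the second, and its column name belongs with those of the 4KD experiment, whereas the second and both Nr5a2 KD pools carry names of another series. By their labels the 2C and 4C pools belong to different experiments, and the column names tie only the first 2C NC pool to the 4KD experiment. With a single such pool, stage and experiment cannot be told apart. Without the first 4C NC pool none of the 9 members was called (4 had an unadjusted p under 0.05 with all pools), without the second 1 was, and without the first 2C NC pool 2 were. Without NC replicate 1 at 2C the median member moved to -0.30 and without replicate 2 to -2.50.

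**Figure D3:**
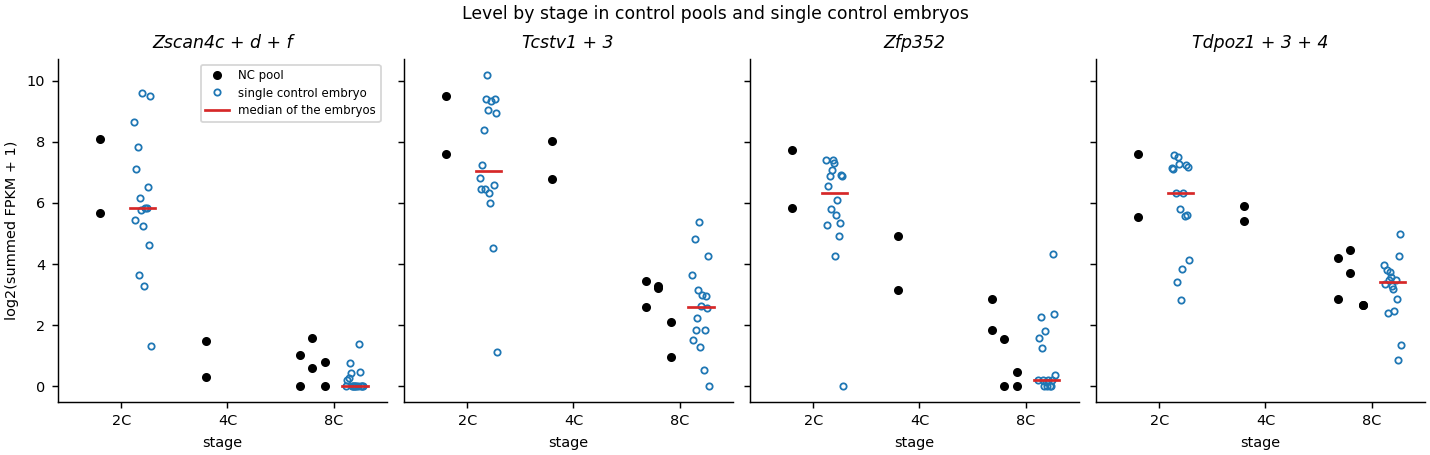
Level of each family, as log2(summed FPKM + 1), by stage; black points are NC pools, open blue points single control embryos (2C and 8C) and red bars the embryo medians. The Zscan4 sum is near the floor already at 4C, whereas the Tcstv and Tdpoz sums of the 4C pools lie between those of 2C and 8C pools or within the 2C range.

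Between 4C and 8C the remaining members were mostly lower again, though with 2 pools a stage none was called. Tcstv1 went from 60.6 and 131 FPKM at 4C to 0 and 2.51 at 8C (-5.59 ± 0.67, limma, adjusted p = 0.0504). Tdpoz4 went from 29.8 and 18.3 to 0.906 and 1.19 FPKM (-3.58 ± 0.57, adjusted p = 0.169) and Tcstv3 from 47.4 and 131 to 4.97 and 7.37 (-3.50 ± 0.62, adjusted p = 0.212). In each of these 3 genes every 8C pool lay below every 4C pool, which groups of 2 often do with no change in level. None of the 7 members tested was called by limma (0% of all genes were), and 5 of 7 had an unadjusted p under 0.05, all lower at 8C, where 7.41% of genes tested had one in either direction. Zscan4c and Zscan4f were under the filter on low values in this experiment, and Zscan4d passed it only through the KD groups.

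Single embryos allowed the 2C and 8C stages to be compared with more replicates, and there all 9 members fell. Zscan4f went from a median of 30.9 FPKM over the 16 control embryos at 2C to 0 at 8C, and no 8C control embryo reached 1 FPKM of Zscan4c, Zscan4d or Zscan4f. The log2 fold change was -4.86 ± 0.51 for Zscan4f (limma, adjusted p = 9.22e-13), -4.13 ± 0.46 for Zscan4c (6.03e-12) and -4.02 ± 0.41 for Zscan4d (4.38e-13). Tcstv1 went from a median of 72.5 to 1.56 FPKM (-5.11 ± 0.61, adjusted p = 6.56e-11) and Tcstv3 from 70.7 to 1.85 (-4.12 ± 0.62, adjusted p = 4.09e-08). Zfp352 went from 79.8 to 0.153 FPKM (-4.93 ± 0.51, adjusted p = 8.16e-13).

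The Tdpoz genes fell by smaller fitted amounts. Tdpoz1 went from a median of 47.7 FPKM to 5.09 (-2.70 ± 0.48, adjusted p = 1.38e-06 by limma) and was still at or above 1 FPKM in 14 of 16 control embryos at 8C. Tdpoz3 went from 6.08 to 0.388 FPKM (-2.18 ± 0.43, adjusted p = 1.35e-05) and Tdpoz4 from 20.9 to 1.79 (-2.27 ± 0.56, adjusted p = 0.000272). The median left at 8C was 10.7% of the 2C median for Tdpoz1 and 8.55% for Tdpoz4, against 2.16% for Tcstv1 and 0.192% for Zfp352. All 9 of 9 members were called lower, beside 10.7% of 12991 genes tested, with 7 called when the eBE or BE4 set was a term, 7 after quantile normalization, and 8 within each set, and the median member had -4.12 where the median gene had -0.31.

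The wider burst program was mostly lower at 8C as well. Of 27 further burst genes in the files, 22 were called lower in control embryos, beside 10.7% of all genes tested, and none higher. Their median log2 fold change was -2.95. They include the Usp17l ubiquitin protease genes, such as Usp17lc (-4.50 ± 0.48), and Tmem92 (-3.75 ± 0.37). The list was made of 2C burst genes, so a lower level at 8C follows in part from how it was chosen. Tdpoz2 (1.94 ± 0.40, limma adjusted p = 2.59e-05), D5Ertd577e (1.95 ± 0.49, adjusted p = 0.000408) and Sp110 (1.94 ± 0.25, adjusted p = 1.03e-09) were instead higher at 8C, just under the fold limit. Tdpoz2 thus had 28.8 FPKM in the median 8C embryo and 14.2 in the median 2C embryo, opposite to Tdpoz1, Tdpoz3 and Tdpoz4. Dux itself was scarcely detected, with a 2C median of 0.296 FPKM. Among known regulators Dppa2, an activator of the program in stem cells, rose by 2.60 ± 0.39 (adjusted p = 4.23e-08), and 2 of 16 repressors were called, both higher, Trim28 (2.02 ± 0.25) and Ncl (2.24 ± 0.22). Dppa2 was the 1 gene called of 4 activators tested. Of all genes tested 8.24% were called higher, so no more is read from these counts.

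No member was called at 2C after Nr5a2 KD, in a comparison of 2 pools with 2. Zscan4f had 44.7 and 53.2 FPKM in the KD pools, between the 2 NC values of 25.2 and 124 (-0.20 ± 0.70, limma, adjusted p = 0.972). Zscan4c had 23.8 and 26.4 FPKM in the KD pools, between 12.6 and 73.1 in NC. Tcstv1 had 266 and 411 FPKM in the KD pools and 102 and 368 in NC (0.77 ± 0.62, adjusted p = 0.89), and Zfp352 had 98.7 and 116 against 55.9 and 214 (-0.03 ± 0.62, adjusted p = 0.994). The ranges of the KD and the NC pools overlapped for all 9 members. The share of all genes whose ranges overlapped was not counted. The overlap came from NC replicate 1, whose column name belongs with another experiment, as given above. Both KD pools lay above NC replicate 2 for each of the 9 members. With a single NC pool on that side, no more is read from this.

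None of 9 members was called at 2C by limma (0.0167% of all genes tested were), and none had an unadjusted p under 0.05, where 4.67% of all genes did. The median member had 0.28, beside 0.23 for all genes. That value depended on the NC pools: without NC replicate 1 it was 1.34, and without replicate 2 it was -0.79. The SE of a member here was 0.62 to 0.78. The fit called 2 of 11958 genes in all, so the absence of a call does not show that the members were unchanged.

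In single 2C embryos the levels after base editing overlapped those of the controls throughout. Zscan4f ran from 0.806 through a median of 38.3 to 147 FPKM in the 14 BE + sgRNA embryos, from 5.00 through 54.7 to 388 in BE and from 0 through 21.3 to 399 in sgRNA embryos (-0.26 ± 0.68, limma, adjusted p = 0.902). Zfp352 had medians of 63.4, 125 and 43.8 FPKM in the same order (-0.07 ± 0.56, adjusted p = 0.97). Tcstv3 had medians of 197, 150 and 32.6 FPKM and gave the lowest p of the 9 (1.30 ± 0.64, adjusted p = 0.43). Without sgRNA embryo 8 the sgRNA medians were 25.1 FPKM for Zscan4f, 47.8 for Zfp352 and 39.2 for Tcstv3, and the fitted values -0.55 ± 0.64, -0.43 ± 0.46 and 1.01 ± 0.60 (adjusted p from 0.46 to 0.73). None of the 9 members was called (0% of all genes were), and none had an unadjusted p under 0.05, where 11.6% of genes did. The median member had 0.30 and the median gene 0.07.

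The fitted direction differed between the sets of libraries named eBE and BE4. Within the eBE set, 6 BE + sgRNA embryos against 11 controls gave 2.07 ± 0.78 for Tcstv3, 1.85 ± 0.55 for Tcstv1 and 1.40 ± 0.48 for Tdpoz1 (limma, adjusted p from 0.39 to 0.45). Within the BE4 set, 8 embryos against 4 controls, all BE, gave -0.73 ± 0.86, -1.16 ± 0.62 and -0.23 ± 0.90 for the same genes, and -1.90 ± 0.77 for Zfp352 (adjusted p = 0.67). The median member was 1.26 within eBE and -1.18 within BE4. No member was called within either set. Within eBE 4 of 9 had an unadjusted p under 0.05, all higher, where 8.99% of genes had one. Within BE4 2 of 9 had one, both lower, where 7.04% of genes did. The difference between the sets was not tested.

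When all 4 receptors were knocked down, the Tcstv genes lay below the range of NC at 4C, short of the threshold. Tcstv1 had 8.97 and 15.3 FPKM in the 4KD pools and 60.6 and 131 in NC (-2.82 ± 0.67, limma, adjusted p = 0.673), and Tcstv3 had 9.60 and 16.4 against 47.4 and 131 (-2.56 ± 0.62, adjusted p = 0.673). Both 4KD pools lay below both NC pools for either gene, which groups of 2 often do with no change in level. Replicate 2 of these 4KD pools also kept more of the targeted mRNAs, as given above. Tdpoz1 went the other way, with 39.0 and 55.4 FPKM against 24.8 and 22.0 (0.96 ± 0.53, adjusted p = 0.909). Tdpoz4 had 27.2 and 27.9 FPKM in 4KD, between the NC values of 18.3 and 29.8. None of 7 members tested was called, as 0% of all genes were, and 2 of 7 had an unadjusted p under 0.05, both lower, where 5.82% of all genes had one. Zscan4c and Zscan4f were not tested and stayed at 1.09 FPKM or less in both 4KD pools, and Zscan4d, at 0 and 3.72 FPKM, passed the filter only through KD groups.

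At 8C, in the same experiment, Tdpoz4 and Tcstv1 lay above NC. Tdpoz4 had 6.51 and 21.3 FPKM in the 4KD pools and 0.906 and 1.19 in NC (2.66 ± 0.57, adjusted p = 0.256 by limma). Tcstv1 had 4.85 and 6.72 FPKM in 4KD and 0 and 2.51 in NC (1.84 ± 0.67, adjusted p = 0.512), whereas Tcstv3 had 1.19 and 3.76 against 4.97 and 7.37 (-1.13 ± 0.62, adjusted p = 0.788). For these 3 genes the groups did not overlap, with 4KD above NC for Tdpoz4 and Tcstv1 and below it for Tcstv3. Groups of 2 often lie apart with no change in level, so no more is read from this. None of 7 was called (0% of all genes), and 2 of 7 had an unadjusted p under 0.05, both higher, beside 7.48% of all genes. The median member had 0.61 and the median gene 0.

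The step from 4C to 8C was also compared between the 4KD and the NC pools. In 4KD pools Tcstv1 went from 8.97 and 15.3 FPKM to 4.85 and 6.72 (-0.92 ± 0.67), and the difference from the NC step was 4.67 ± 0.95 (limma, adjusted p = 1). Tdpoz4 went from 27.2 and 27.9 to 6.51 and 21.3 FPKM in 4KD (-1.14 ± 0.57), a difference of 2.44 ± 0.81 from NC (adjusted p = 1). Within the 4KD pools none of 7 members was called between stages (0%) and 2 had an unadjusted p under 0.05, Tcstv3 and Tdpoz1, both lower at 8C (7.67% of genes). For the difference of the steps none was called (0%) and 2 of 7, Tcstv1 and Tdpoz4, had an unadjusted p under 0.05 (2.47% of genes).

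Knockdowns of 3 receptors left the members at low 8C levels. Across the 10 pools of that experiment Tcstv1 ran from 0 to 36.5 FPKM, and the NC pools had 5.83 and 5.73. Rarg, Nr1h3 and Nr2c2 KD, the group that keeps Nr5a2, had none of 6 members called by limma (0%) and none at an unadjusted p under 0.05 (2.36% of genes). Nr5a2, Nr1h3 and Nr2c2 KD had none called (0%) and 1 at that p (6.25%), Zfp352, at 4.97 and 7.48 FPKM against 0 and 1.92 (2.06 ± 0.90, adjusted p = 0.769), a gene that passed the filter only through KD groups. Nr5a2, Rarg and Nr2c2 KD had none called (0%) and none at that p (6.95%), as did Nr5a2, Rarg and Nr1h3 KD (0% and 7.37%). The highest Tcstv values of this experiment were both in Nr5a2, Nr1h3 and Nr2c2 KD replicate 1, with Tcstv1 at 36.5 and Tcstv3 at 35.8 FPKM against 8.76 and 4.09 in replicate 2.

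Single knockdowns did not call any member either, and 1 library carried most of what could be seen. Nr5a2 KD, whose fit called 0.689% of all genes, called none of 6 members (limma) and had none at an unadjusted p under 0.05, where 18.1% of genes did. Tdpoz4 had 5.28 and 5.70 FPKM in that group and 1.85 and 1.62 in NC (1.25 ± 0.96, adjusted p = 0.538). It did not overlap NC in any of the single KD groups. Rarg KD called none (0%) and had none at that p (3.76%), and Nr1h3 KD likewise (0% and 2.92%). Nr2c2 KD called none (0%) but had 2 at that p (4.19%), Tcstv3 (3.67 ± 1.51) and Tdpoz4 (2.32 ± 0.96), both at an adjusted p of 0.93. Zscan4c, Zscan4d and Zscan4f were not tested in this experiment or in that on 3 receptors, with no group reaching a mean of 1 FPKM, and Tcstv3, Zfp352 and Tdpoz3 passed here only through KD groups.

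The Nr2c2 KD values came from replicate 1. That pool had Tcstv1 at 112 FPKM and Tcstv3 at 170, against 0.586 and 0.574 in replicate 2. It also had Zfp352 at 21.6 FPKM against 0.337, Tdpoz1 at 14.1 against 0.564 and Tdpoz4 at 47.3 against 2.85, but Zscan4f at 1.01 against 0.108. The Tcstv sum ran from 0.460 to 72.3 FPKM in the other 23 pools at 8C, so replicate 1 lay above every one of them. The sum of the further burst genes was 1225 FPKM there and 127 to 550 in the other 23. Its median over early 2C genes was 3.40, against 0.43 to 2.93 in the other 8C pools and 2.22 to 4.46 in the 4C pools, while Nr2c2 was at 0.809 FPKM, beside 0.592 in replicate 2. Without replicate 1 the median member moved from 2.27 to -0.047, and without replicate 2 to 4.14 with 1 member called. The part of embryo age in this library was not tested.

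Other single pools stood apart by at least 10 times for 1 member each. Rarg KD replicate 2 had Zfp352 at 50.1 FPKM, against 0.499 in replicate 1 and 0 to 29.1 across the 4C and 8C NC pools. Its Tcstv1 was 18.6 FPKM and its Tdpoz4 17.2, against 4.30 and 3.00 in replicate 1. Rarg, Nr1h3 and Nr2c2 KD replicate 2 had Tcstv3 at 7.65 FPKM where replicate 1 had 0.

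**Figure D4:**
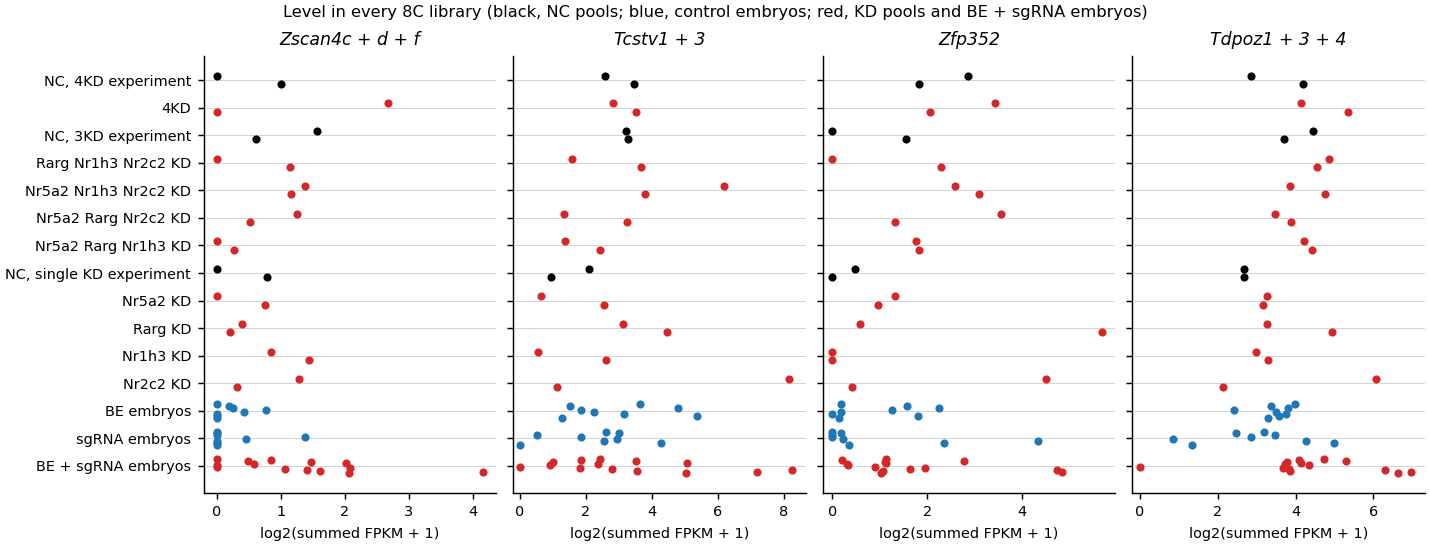
Level of each family, as log2(summed FPKM + 1), in every 8C library by group; each point is 1 library, black for NC pools, blue for BE and sgRNA embryos, red for KD pools and BE + sgRNA embryos. For the Tcstv sum 1 Nr2c2 KD pool and BE + sgRNA embryos 11 and 13 lie to the right of all others, and for the Tdpoz sum BE + sgRNA embryos 11, 13 and 14 do.

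In single 8C embryos no member was called after base editing, and the highest values lay in 3 embryos. Tdpoz4 ran from 0 through a median of 7.40 to 68.1 FPKM in BE + sgRNA, from 0 through 1.79 to 9.95 in BE and from 0 through 1.86 to 21.6 in sgRNA embryos (1.58 ± 0.53, limma, adjusted p = 0.254). Tdpoz1 had medians of 11, 5.09 and 5.10 FPKM in the same order (0.85 ± 0.43, adjusted p = 0.477) and Tcstv1 1.70, 1.48 and 1.56 (1.10 ± 0.62, adjusted p = 0.559). The groups overlapped for each of these genes. None of 7 members was called (0% of all genes), and 2 of 7, Tdpoz4 and Zscan4f, had an unadjusted p under 0.05, where 10.8% of genes did. Zscan4f passed the filter only through the BE + sgRNA group, so its part in these counts and in the median could hardly point the other way. The median member had 0.73 and the median gene 0.01. BE + sgRNA embryo 8 had an FPKM sum of 83392 over all genes, against at least 207918 in every other 8C embryo, and was at 0 for every member but Zfp352 (0.870 FPKM). Without it the median member was 0.82, Tdpoz4 gave 1.83 ± 0.50 (adjusted p = 0.0732) and Tdpoz1 1.10 ± 0.38 (adjusted p = 0.13), and no member was called. An unadjusted p under 0.05 was then found for 4 of 7, Zscan4f again among them, beside 17.2% of genes. Without embryos 13 and 14, 1 of 6 had one (7.38% of genes), and without 11, 13 and 14 none of 6 (6.13%).

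Zscan4 transcripts were near the floor in all 8C groups. The Zscan4 sum was at or above 1 FPKM in 8 of 14 BE + sgRNA embryos, in none of 8 BE embryos and in 1 of 8 sgRNA embryos. Without BE + sgRNA embryos 13 and 14 it was so in 6 of 12. Zscan4f ran from 0 through 0.272 to 8.83 FPKM in BE + sgRNA, from 0 through 0 to 0.105 in BE and from 0 through 0 to 0.839 in sgRNA embryos (0.67 ± 0.24, adjusted p = 0.287 by limma). It passed the filter only through the BE + sgRNA group, so this comparison could hardly point the other way. Zscan4c and Zscan4d did not pass it.

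Embryos 11, 13 and 14 of the BE + sgRNA group held the highest values. Embryo 11 had Tcstv1 at 118 FPKM, Tcstv3 at 184, Zfp352 at 25.8 and Tdpoz4 at 37.4. Embryo 13 had Tcstv1 at 113 FPKM, Zfp352 at 27.7, Tdpoz4 at 68.1 and the highest Zscan4 sum of any 8C embryo, 16.8. Embryo 14 had Tdpoz4 at 59.2 FPKM and Tdpoz1 at 36.0, with Zfp352 at 1.03. Over the other 27 embryos at 8C the Tcstv sum reached 40.1 FPKM at most. The column names of 13 and 14 give 4C, and their medians over late 2C genes, 3.94 and 3.87, were above the 0.88 to 3.31 of the other 28 embryos and the 3.25 to 3.47 of the 4C pools. Embryo 11 carries no such name, and its early 2C median was 3.68, against at most 2.27 in the other 27. Without 13 and 14 Tdpoz4 gave 1.11 ± 0.49 (adjusted p = 0.62), and without all 3 embryos, a choice made after their values were seen, 0.88 ± 0.47 (adjusted p = 0.87), with the median member at 0.18. Within the eBE set Tdpoz4 gave 1.32 ± 0.37 (adjusted p = 0.12) and within BE4 0.90 ± 0.84 (adjusted p = 1).

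The fall from 2C to 8C was also seen in edited embryos. In BE + sgRNA embryos 7 of 9 members were called lower, beside 10.3% of genes tested, and the median member had -3.36. Without the 3 libraries whose column names give 4C, 8 of 9 were called, and without embryos 11, 13 and 14, 9 of 9. The choice of embryos 11, 13 and 14 followed from their high 8C values, so leaving them out could hardly make the fall smaller. No more is read from that count. The shares of all genes called in these narrower fits are not given. Zscan4f had -3.93 ± 0.54 (limma, adjusted p = 5.78e-09) and Tcstv1 -5.02 ± 0.65 (1.03e-09). Tdpoz3 (-1.86 ± 0.46, adjusted p = 0.00043) and Tdpoz4 (-1.38 ± 0.59, adjusted p = 0.0379) stayed under the fold limit. The difference between the falls in edited and control embryos was called for none of 9 members (0%) and had an unadjusted p under 0.05 for none, where 9.68% of genes had one. It was 0.93 ± 0.74 for Zscan4f (adjusted p = 0.713), 0.90 ± 0.81 for Tdpoz4 (0.746) and 0.80 ± 0.75 for Zfp352 (0.753), so a difference of over 2 on the log2 scale lay within about 2 SE for each.

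Tdpoz4 can be followed at 8C across the experiments that targeted Nr5a2, each with controls of its own. It had 6.51 and 21.3 FPKM after 4KD against 0.906 and 1.19, 5.28 and 5.70 after Nr5a2 KD against 1.85 and 1.62, and a median of 7.40 after base editing against 1.79 and 1.86. The 3KD groups did not separate in this way, with 10.5 and 14.4, 5.98 and 6.02, and 2.63 and 10.1 FPKM in the 3 groups that include Nr5a2 siRNA and 11.8 and 2.77 in NC. The 3KD group that keeps Nr5a2 had 3.44 and 9.12 FPKM, within the range of NC. None of these differences passed the threshold. The single KD groups that spare Nr5a2 also lay above the same NC pools. Rarg KD had 3.00 and 17.2 FPKM, Nr1h3 KD 3.65 and 4.46, and Nr2c2 KD 47.3 and 2.85. In the single KD experiment, values above NC were thus not limited to the Nr5a2 KD group. The high values of Rarg KD and Nr2c2 KD came from 1 pool each. Whether higher Tdpoz4 is particular to groups that target Nr5a2 was not tested.

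**Figure D5:**
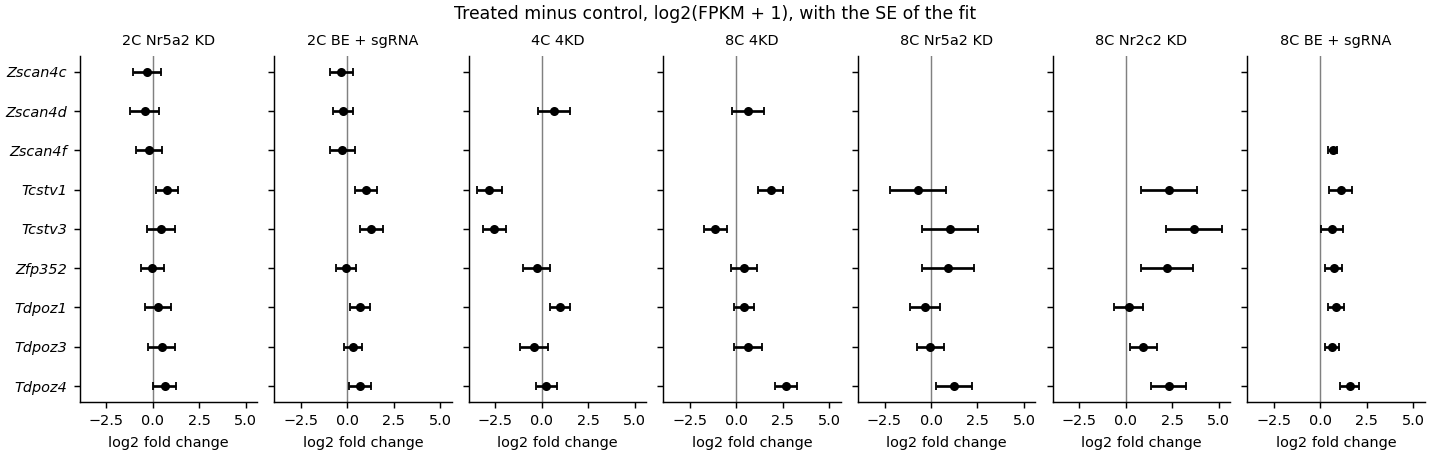
Fitted log2 fold changes of treated against control groups on log2(FPKM + 1) for the members tested in 7 of the comparisons; points are fitted values and bars their standard errors, and a gap marks a member under the filter on low values. No point shown was called, and the values of Tcstv1 lie at -2.82 in 4KD at 4C and 1.84 in 4KD at 8C.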

How the data were processed

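Smart-seq2 RNA-seq of mouse embryos was analysed in 92 libraries with expression files; 21 of 113 samples in the series (binding and accessibility) were not analysed here. FPKM per gene were deposited by the authors, who aligned reads to mm9 with TopHat and computed FPKM with Cufflinks 2.2.1 on refFlat genes, 1 file per library, with no pooling and no counts. The count test of the methods could not be used on FPKM, so log2(FPKM + 1) was fitted with limma 3.58.1 (R 4.3.3, eBayes with trend, Benjamini-Hochberg over all genes tested), keeping genes with a mean of at least 1 FPKM in at least 1 group of the fit. All libraries of 1 experiment shared a fit. BE and sgRNA groups were averaged as the control. Correlations used 100000 permutations. The members and gene lists were chosen with earlier results of these data known. Named genes were the 9 members, the 4 targeted receptors as checks, the 5 genes most like each family, and members of the fixed lists. A pool was said to stand apart at 10 times its partner and 5 FPKM or more. Alternatives were another pseudocount (0.1), no filter or a mean of 5, median-ratio and quantile scaling, no trend, a replicate block, summed families, the sets of libraries named eBE or BE4 (as a term or alone), and leaving out libraries. The scripts were tested on simulated data, with a log2 change of 3 added to 200 genes. The share of these genes called was 0% for Nr5a2 KD at 2C, 19.5% for 4KD at 4C and 67.5% for Nr5a2 KD at 8C. It was 100% for BE + sgRNA at 8C and 99% for 8C against 2C in control embryos. The absence of a call between pools therefore does not show that a gene was unchanged.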

Additional observations from a re-analysis of the deposited data

Results flagged for a closer look

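In 36 sets of 8 control embryos (9 genes, 4 groups), 4 held an embryo far from the other 7, where chance gives about 1 in 20. Zfp352 was at 0 FPKM in 2C sgRNA embryo 8 and at 18.2 to 119 FPKM in the other 7, the embryo whose column name gives the 4C stage. Zscan4d was at 0.532 FPKM in 8C BE embryo 4 and at most 0.163 in the others. In 8C sgRNA embryo 4 Zscan4c was at 0.400 FPKM and Zscan4f at 0.839, where the other 7 embryos had 0 for both. Any trace then counts as far, so the rate of 1 in 20 does not hold for these 2 genes. Zscan4d was at 0.350 FPKM in that embryo and at 0.374 in embryo 5 of the same group. The 3 values at 8C are under 1 FPKM.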

How the results depend on the processing

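With 2 pools a group, single libraries moved many values. Leaving out each library in turn, the number of members called from 2C to 4C in NC pools ran from 0 to 3 and that in Nr2c2 KD from 0 to 1, and it stayed at 0 in the other KD comparisons. The median log2 fold change of the members ran from -0.79 to 1.34 for Nr5a2 KD at 2C, from -0.46 to 0.24 for 4KD at 4C, from 0.27 to 1.08 for 4KD at 8C, from -2.21 to -1.87 from 4C to 8C in NC pools, from 0.49 to 1.99 for the difference of that step in 4KD, and from -2.50 to -0.30 from 2C to 4C. It ran from -0.93 to 0.86 for Rarg, Nr1h3 and Nr2c2 KD, from 0.050 to 1.39 for Nr5a2, Nr1h3 and Nr2c2 KD, from -0.94 to -0.048 for Nr5a2, Rarg and Nr2c2 KD, from -0.99 to -0.072 for Nr5a2, Rarg and Nr1h3 KD, from 0.51 to 2.1 for Rarg KD, and from -0.047 to 4.14 for Nr2c2 KD. Signs that turned were those of members near 0: for 4KD at 4C, Tdpoz3 ran from -1.12 to 0.23 (0.08 without NC replicate 1), Zfp352 from -1.16 to 0.59, Tdpoz4 from -0.11 to 0.57 and Zscan4d from -0.46 to 1.78; from 4C to 8C in NC pools Zscan4d ran from -0.46 to 0.46 (-0.14 without 4C NC replicate 1, and -0.55 with a pseudocount of 0.1); from 2C to 4C Tdpoz4 ran from -0.92 to 0.80 (0.27 without 4C NC replicate 2). A pseudocount of 0.1 moved the median to -3.22 from 4C to 8C in NC pools, -0.38 for Rarg, Nr1h3 and Nr2c2 KD, 1.67 for BE + sgRNA at 8C, -6.39 from 2C to 8C in control embryos and -4.96 in BE + sgRNA embryos, and left 1 member called from 2C to 4C. From 4C to 8C a mean of at least 5 FPKM gave a median of -3.50 and a fit of those groups alone -2.60. That narrower fit called 0 members from 2C to 4C, with fewer libraries behind the spread, where quantile scaling gave a median of -2.17. With no filter the median was 0.25 for Nr5a2, Nr1h3 and Nr2c2 KD and 0.95 for Nr2c2 KD. With families summed it was 0.16 for 4KD at 4C and 0.64 for the difference of the steps. Within the libraries named BE4 it was -1.18 for BE + sgRNA at 2C, and within those named eBE -4.82 from 2C to 8C in BE + sgRNA embryos. With the looser limits of a raw p below 0.05 and a fold of 1 on the log2 scale, 5 members passed from 4C to 8C in NC pools, 2 each in 4KD at 4C, 4KD at 8C, the same step in 4KD, the difference of the steps and Nr2c2 KD, and 1 each in Nr5a2, Nr1h3 and Nr2c2 KD and BE + sgRNA at 8C. The causes were not tested.

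Replicate numbers in the labels mark no shared day or litter. Deviations of same-numbered pools correlated at 0.00503 at 2C, 0.372 and 0.367 in the 4KD experiment at 4C and 8C, 0.300 to 0.541 in the 3KD experiment and -0.0413 to 0.110 in the single KD experiment. A fit with the replicate block called 3 members from 2C to 4C in NC pools, as without it, and changed no other call.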
